A study of Rattus norvegicus with 9 samples.

Results

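Pleiotrophin, midkine, the ALK and LTK ligands, HGF and the receptors of these factors were followed in cultured rat fibroblasts (Fb) from epineurium, nerve parenchyma and skin. The 9 genes are *Ptn*, *Mdk*, *Alk*, *Ltk*, *Alkal1*, *Alkal2*, *Ptprz1*, *Hgf* and *Met*, found by gene symbol among the 32883 genes of the deposited tables, each in 1 row. The family was chosen by measured values: in an earlier look at these libraries, *Ptn*, *Hgf* and *Alkal1* had passed thresholds for differences between types. The values of these 3 genes are therefore given as a description without a test, and the other 6 genes were joined to them as relatives, ligands or receptors. RNA was sequenced from 9 libraries, 3 for each type, and the types are called Fb-Epn, Fb-Par and Fb-Skn. All cells came from wild-type male Lewis rats, 10 weeks of age, and none had received a treatment. The sciatic nerves of 2 rats gave Fb-Epn and Fb-Par, which were separated by hand, and the abdominal skin of 1 other rat gave Fb-Skn. All cells grew in medium with serum and were passaged 1 time. The 3 samples of 1 type were therefore not 3 separate animals, and every SD and p here measures the spread between samples, which may be technical. Tissue, rat and body site changed together between the nerve types and Fb-Skn and cannot be told apart.

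Pleiotrophin (*Ptn*) and midkine (*Mdk*) form a small family of secreted, heparin-binding growth factors that are known to promote neurite outgrowth. They bind the chondroitin sulfate chains of the receptor phosphatase PTPRZ1 and several syndecans and integrins. ALKAL1 and ALKAL2 are secreted ligands that activate the receptor tyrosine kinases ALK and LTK, which are known for roles in neural development. HGF is secreted by mesenchymal cells as an inactive precursor, is cut by serine proteases, and acts on the receptor tyrosine kinase MET, which drives growth and movement of many epithelial and neural cells.

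Total counts ranged from 10084584 to 12310506 per library. Levels are given as TPM, the deposited transcript abundance, which divides the count by the length of the gene model and so allows genes to be compared. Differences were tested on the counts with edgeR in 1 model of all 9 libraries as a log2 fold change (log2FC) with its standard error (SE), and a gene was called at a Benjamini-Hochberg adjusted p under 0.01 over all 13273 genes that passed the expression filter. An exact permutation test of 3 samples against 3 cannot give a two-sided p under 0.1. The cultures expressed the fibroblast markers in every library, with a summed TPM of 25824 to 31195 over 6 genes. Schwann cell markers were also present in the nerve types: the summed TPM of 7 markers was 190.2 to 201 in Fb-Epn, 254 to 262 in Fb-Par and 10.5 to 13.2 in Fb-Skn, where *Sox10*, *Erbb3* and *Cdh19* had 0 counts. The summed TPM of 5 macrophage and leukocyte markers was 220 to 247 in Fb-Epn, 55.2 to 59.9 in Fb-Par and 18.3 to 20.4 in Fb-Skn. Over 5 endothelial markers it was 11.0 to 11.2, 9.77 to 10.9 and 1.00 to 1.56, with *Cdh5* and *Emcn* at 0 counts in Fb-Skn. In bulk RNA, fewer cells of a type and less RNA per cell cannot be told apart. Epithelial and keratinocyte markers were at or near 0 in every library.

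Among the 9 genes, 8 passed the filter, and *Alkal2* did not. *Ptn*, *Hgf* and *Alkal1* are left out of the counts that follow, since they were chosen on these differences, and 5 tested genes remain. In the comparison of epineurium with skin, 2 of the 5 were called higher in Fb-Epn (*Mdk* and *Alk*) and 2 lower (*Ptprz1* and *Ltk*), where 23.0% of all tested genes were called higher and 20.9% lower. Between Fb-Par and Fb-Skn, 2 were called higher in Fb-Par (*Mdk* and *Alk*) and 2 lower (*Ltk* and *Met*), against 23.2% and 22.4% of all tested genes. Between Fb-Epn and Fb-Par, 1 was called higher in Fb-Epn (*Met*) and 2 lower (*Mdk* and *Ptprz1*), against 20.2% and 18.6%. *Alk*, at 0 counts in Fb-Skn, passed the filter through its nerve libraries alone. *Ltk* passed it through its Fb-Skn libraries and did not pass in the fit of only the 2 nerve types. The whole family was also put together with earlier results of these libraries known, so nothing is read from these counts. All 3 comparisons share libraries.

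**Figure D1:**
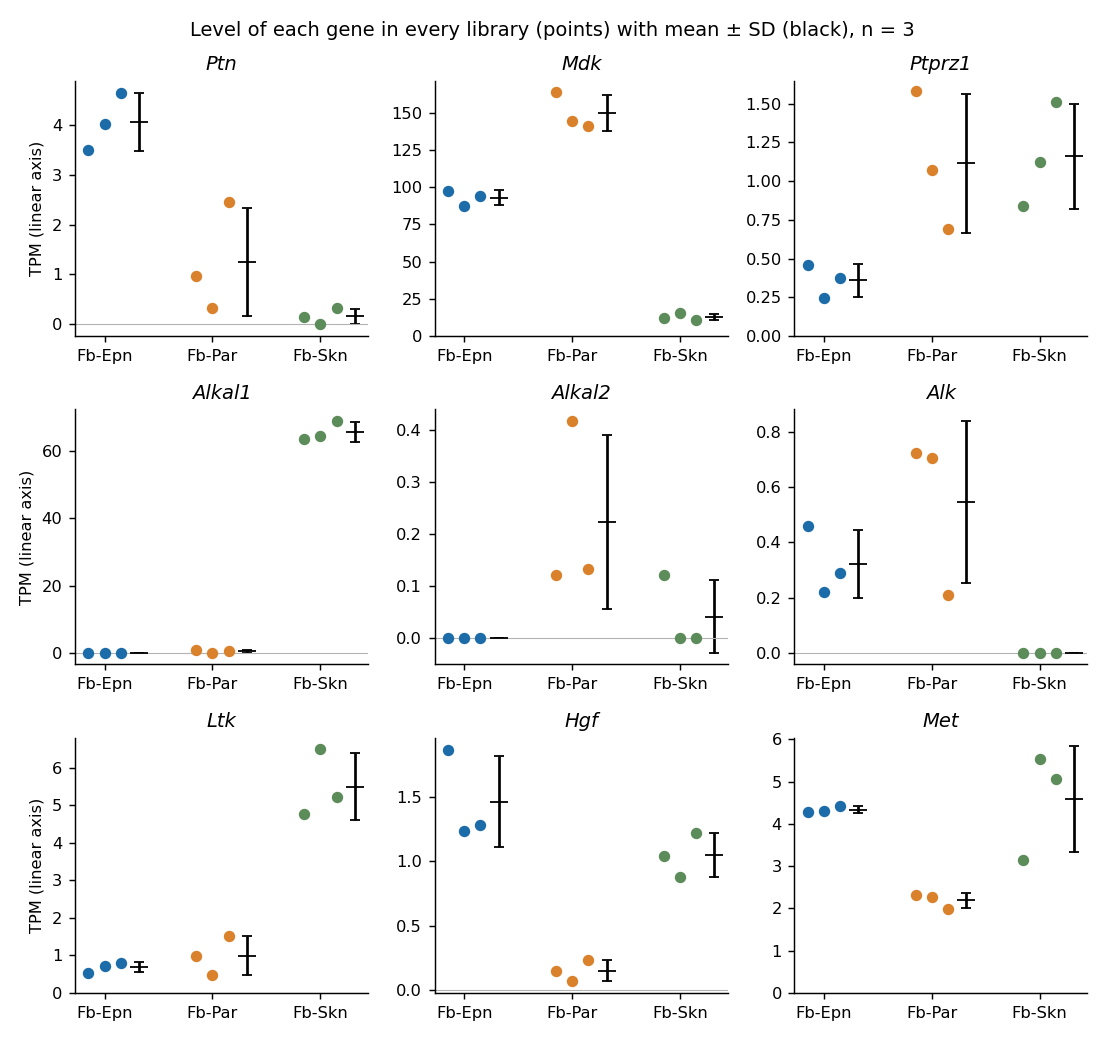
TPM of each gene (vertical axes, linear, a separate scale for each gene) in each of the 9 libraries, by type, with points for libraries and black marks for the mean ± SD (n = 3). Mdk and Alk were above all Fb-Skn libraries in both nerve types, Alkal1 and Ltk were highest in Fb-Skn, and Hgf and Met were lowest in Fb-Par.

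*Mdk* was the most abundant of these genes in both nerve types and was 6.59-fold higher in Fb-Epn and 10.6-fold higher in Fb-Par than in the skin cells by normalised counts. Midkine (ENSRNOG00000017560) lies on the minus strand of chromosome 3 (rn6, 80841005 to 80842916). In TPM, midkine reached 97.2, 87.2 and 94.2 in the Fb-Epn libraries, 164, 144 and 141 in Fb-Par and 12.2, 15.2 and 11.0 in Fb-Skn. The libraries of the 3 types did not overlap, and the order Fb-Par, Fb-Epn, Fb-Skn held for every library. Mean TPM was 92.9 ± 5.11 (SD, n = 3) in Fb-Epn, 149.7 ± 12.3 in Fb-Par, then 12.8 ± 2.14 in Fb-Skn. Relative to skin, edgeR gave a log2FC of 2.72 for the epineurial cells (SE 0.12, adjusted p = 5.8e-11) and of 3.40 for the parenchymal cells (SE 0.11, adjusted p = 2.8e-12). Fb-Epn was lower than Fb-Par by edgeR (log2FC -0.68, SE 0.087, adjusted p = 1.2e-05). *Mdk* was above 86.6% of the tested genes in Fb-Epn, 91.6% in Fb-Par, then 42.9% in Fb-Skn by mean TPM. The gene overlaps *Chrm4* on the opposite strand, which had at most 9 counts in any library, and the strand setting of the counting is not given in the sources used here. The Schwann cell marker sum given above had the same order of types as *Mdk*, and its part in the result was not tested.

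*Ptn*, the relative of midkine, had its highest level in Fb-Epn. It has the identifier ENSRNOG00000011946 and lies on chromosome 4 from 64239158 to 64330996. Counts were 23, 30 and 31 in the Fb-Epn libraries, 7, 2 and 16 in Fb-Par and 1, 0 and 2 in Fb-Skn. Mean TPM of *Ptn* was 4.06 ± 0.581 in Fb-Epn, 1.25 ± 1.09 in Fb-Par, then 0.153 ± 0.159 in Fb-Skn (SD, n = 3). Every Fb-Epn library was above all others, while the lowest Fb-Par library lay between the highest and the middle Fb-Skn library by normalised count. The Fb-Par libraries spread widely: the exact 95% Poisson interval was 0.242 to 7.22 counts for the library with 2 counts and 9.15 to 26.0 for the library with 16, for counting error only. Against the 3 counts of all Fb-Skn libraries together, the normalised count was 24.1-fold higher in Fb-Epn (95% interval for counting error 7.98 to 119) and 7.40-fold higher in Fb-Par (2.26 to 38.3). Fb-Epn held 3.26 times the normalised count of Fb-Par (2.07 to 5.33). Without Fb-Par replicate 3, which has the 16 counts, the fitted log2 difference between Fb-Epn and Fb-Par was 2.58 in place of 1.69, and that between Fb-Par and Fb-Skn was 1.86 in place of 2.75. Without Fb-Skn replicate 3, which has 2 of the 3 counts of that type, the difference from Fb-Skn was 5.33 in place of 4.44 for Fb-Epn and 3.64 in place of 2.75 for Fb-Par. *Ptn* made up 4.20% ± 0.649 of the summed TPM of *Ptn* and *Mdk* in Fb-Epn, 0.841% ± 0.773 in Fb-Par, then 1.32% ± 1.42 in Fb-Skn (SD, n = 3). The summed macrophage and leukocyte markers had the same order of types as *Ptn*, and their part in its values was not tested.

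*Ptprz1*, which encodes the receptor phosphatase that binds both factors, was lower in Fb-Epn than in either of the other types. The gene (ENSRNOG00000006030) lies on chromosome 4 from 49941304 to 50140762. It had 18, 11 and 15 counts in the Fb-Epn libraries, 68, 40 and 27 in Fb-Par and 36, 42 and 57 in Fb-Skn. All Fb-Epn libraries were below all others, and Fb-Par and Fb-Skn overlapped. Mean TPM was 0.360 ± 0.106 (SD, n = 3), 1.11 ± 0.446 and 1.16 ± 0.337 in that order. The log2FC of Fb-Epn was -1.82 against Fb-Skn (SE 0.35, adjusted p = 5.0e-04, edgeR) and -1.63 against Fb-Par (SE 0.35, adjusted p = 0.0014). The call against Fb-Par was lost without Fb-Epn replicate 2 (adjusted p = 0.0101, edgeR) and without Fb-Par replicate 1 (adjusted p = 0.0109), at log2FC values of -1.41 and -1.29. Fb-Par against Fb-Skn gave -0.19 (SE 0.31, adjusted p = 0.62, edgeR), a difference within the spread of the libraries. Ligand and receptor thus had different orders of types: *Mdk* was at its lowest in Fb-Skn, while *Ptprz1* was at its lowest in Fb-Epn.

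*Alkal1*, a ligand of LTK and ALK, had 133, 118 and 127 counts in the Fb-Skn libraries, 2, 0 and 1 in Fb-Par and 0 in every Fb-Epn library. The gene (ENSRNOG00000048703) lies on chromosome 5 from 12896558 to 12925571. All Fb-Skn libraries were far above those of both nerve types, which overlapped. TPM in the Fb-Skn libraries was 63.6, 64.6 and 68.9 (mean 65.7 ± 2.86, SD, n = 3), the highest level of the 9 genes in that type and above 81.8% of the tested genes. The length that the deposited TPM imply for *Alkal1* is 0.165 times that of the median expressed coding gene and 0.533 times that of *Mdk*, so that few counts give a high TPM. The 0 counts of the Fb-Epn libraries were set to a floor of 3 counts over the group. Against that floor the level in Fb-Epn was 146-fold lower than in Fb-Skn, with counting error left out. Against the 3 counts of Fb-Par, Fb-Skn was 142-fold higher (95% interval for counting error 48.2 to 691). Without Fb-Par replicate 1 the fitted log2 difference of Fb-Par from Fb-Skn was -7.76 in place of -6.98. The summed TPM of the 5 epithelial markers was also highest in Fb-Skn, at only 0.977 to 1.46, of which *Krt14* made up a mean TPM of 1.11. *Epcam* had a mean TPM of 0.040 in Fb-Skn, 0.360 in Fb-Epn and 0.229 in Fb-Par, and *Cdh1* and *Krt15* had 0 counts in Fb-Skn.

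*Alkal2*, the second ligand (ENSRNOG00000005154, chromosome 6, 49825469 to 49834912), was nearly absent from the counts. It had 1, 3 and 1 counts in Fb-Par, 1, 0 and 0 in Fb-Skn and 0 in Fb-Epn, and was not tested. At 5 counts over the group, Fb-Par was 4.44-fold above the 1 count of Fb-Skn, with a 95% counting interval of 0.497 to 210, so that a difference from Fb-Skn was not detectable at this depth. Every Fb-Par library was above the 0 counts of Fb-Epn. Against a floor of 3 counts over the Fb-Epn libraries, Fb-Par was 1.72-fold higher. That ratio leaves out the counting error of the 5 counts in Fb-Par, so no difference is read from it.

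The receptors ALK and LTK, which share these ligands, differed between Fb-Skn and the nerve types in opposite directions. *Ltk* (ENSRNOG00000025130, chromosome 3, 111553680 to 111560556) had 58, 69 and 56 counts in the Fb-Skn libraries, 6, 9 and 9 in Fb-Epn and 12, 5 and 17 in Fb-Par. Fb-Skn was above every library of both nerve types, and the nerve types overlapped. Mean TPM of *Ltk* was 5.49 ± 0.894 (SD, n = 3) in Fb-Skn, 0.679 ± 0.132 in Fb-Epn and 0.992 ± 0.526 in Fb-Par. Relative to skin its log2FC by edgeR was -3.13 for epineurial cells (SE 0.35, adjusted p = 2.5e-06) and -2.60 for parenchymal cells (SE 0.33, adjusted p = 9.2e-06). Between the nerve types it was -0.53 (SE 0.41, adjusted p = 0.31, edgeR). However, *Ltk* did not pass the filter in the fit of only the 2 nerve types. It passed in the main fit through its Fb-Skn libraries, where it was high, so its calls against Fb-Skn are a description.

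*Alk* (ENSRNOG00000008683, chromosome 6, 22696397 to 23203775) had 0 counts in every Fb-Skn library, 11, 6 and 7 in Fb-Epn and 19, 16 and 5 in Fb-Par. It was detected in every nerve library, at a mean TPM of only 0.323 ± 0.122 (SD, n = 3) in Fb-Epn and 0.547 ± 0.292 in Fb-Par. Against a floor of 3 counts over the Fb-Skn libraries, *Alk* was 6.90-fold higher in Fb-Epn and 11.8-fold higher in Fb-Par, with counting error left out. The adjusted p in edgeR was 0.0023 and 4.4e-04. However, *Alk* passed the filter through its nerve libraries alone. In the fits of only the 2 types compared it did not pass against Fb-Skn. Its calls against Fb-Skn are therefore a description. With limma on log2(TPM + 1) the adjusted p in Fb-Epn was 0.047, and with limma on log2(FPKM + 1) it was 0.079 in Fb-Epn and 0.011 in Fb-Par. The nerve types overlapped, and edgeR gave -0.76 on the log2FC scale for Fb-Epn against Fb-Par (SE 0.53, adjusted p = 0.27). Of the summed TPM of both receptors, *Ltk* made up 67.8% ± 12.2 in Fb-Epn, 61.8% ± 24.2 in Fb-Par, then 100% in Fb-Skn, where *Alk* had no count. The Schwann cell markers with counts in every nerve library and 0 in Fb-Skn, such as *Sox10*, had the same distribution as *Alk*, and their part in it was not tested.

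The windows annotated as promoters of *Alk* and *Ltk* are shown because these receptors of the same ligands differed in opposite directions between nerve types and skin. RefSeq promoters of build GRCr8 were found for 6 of the 9 genes, and the 250 bases before the annotated start are printed on the strand of the gene. *Alk* lies at chr6:28631227-28631476 on the plus strand, and *Ltk* at chr3:127195357-127195606 on the minus strand, in a later build than that of the counts. Capitals mark the GC box (GGGCGG or, on the other strand, CCGCCC) and the CCAAT box (CCAAT or ATTGG), which do not overlap each other.
Alk: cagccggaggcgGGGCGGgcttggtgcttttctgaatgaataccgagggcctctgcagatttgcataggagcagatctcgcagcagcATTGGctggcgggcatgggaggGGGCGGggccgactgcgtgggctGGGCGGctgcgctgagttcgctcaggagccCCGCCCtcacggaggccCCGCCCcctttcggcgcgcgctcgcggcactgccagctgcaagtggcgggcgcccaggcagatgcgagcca
Ltk: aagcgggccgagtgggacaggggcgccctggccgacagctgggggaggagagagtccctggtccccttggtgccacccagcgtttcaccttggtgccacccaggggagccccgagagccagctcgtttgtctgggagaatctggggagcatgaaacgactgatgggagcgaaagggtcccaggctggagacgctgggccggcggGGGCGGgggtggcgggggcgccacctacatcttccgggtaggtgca
The *Alk* window held 5 GC boxes and 1 CCAAT box, and the *Ltk* window held 1 GC box and no CCAAT box. Neither held a TATA box (TATAAA or TTTATA). Over all 33469 promoter windows of this length, 30.5% held a GC box, 34.0% a CCAAT box and 12.9% a TATA box. The number of CG dinucleotides was 24 in *Alk* and 16 in *Ltk*, where the median window had 5. These matches are a description of the letters and not of binding sites, and no measurement of promoter state was made in these cells.

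**Figure D2:**
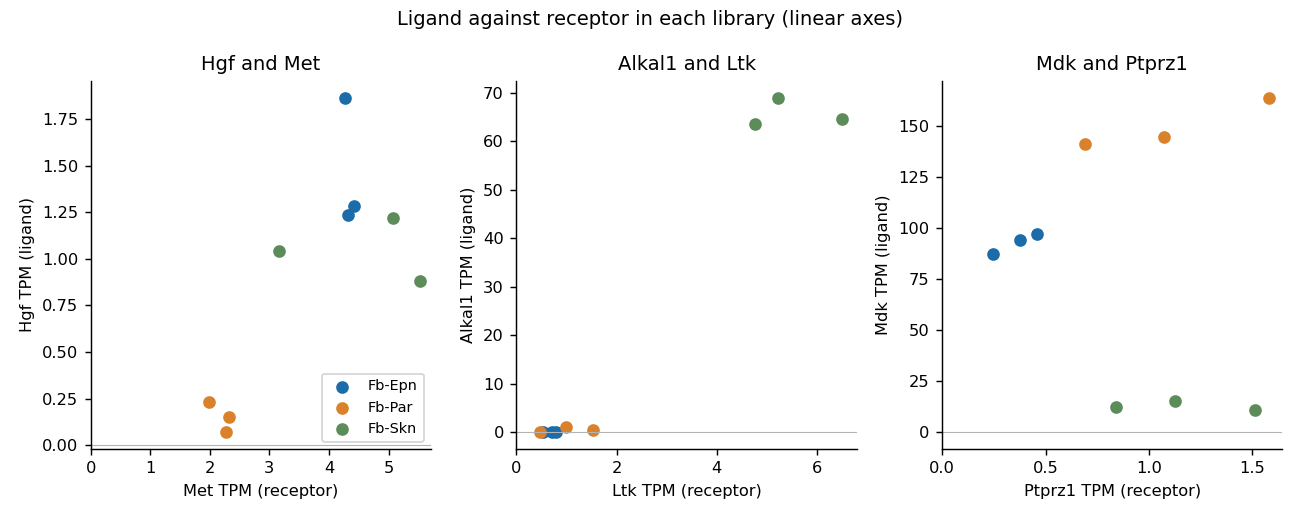
TPM of a ligand (vertical axis, linear) against TPM of a receptor (horizontal axis, linear) in each of the 9 libraries, for Hgf with Met, Alkal1 with Ltk and Mdk with Ptprz1, with points coloured by type. The Fb-Par libraries are lowest for both Hgf and Met, and the Fb-Skn libraries are highest for both Alkal1 and Ltk, while Mdk and Ptprz1 do not share an order.

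*Hgf* and its receptor gene *Met* both had their lowest levels in Fb-Par. *Hgf* (ENSRNOG00000007027, chromosome 4, 15433295 to 15505362) had 56, 42 and 39 counts in the Fb-Epn libraries, 5, 2 and 7 in Fb-Par and 34, 25 and 35 in Fb-Skn. The Fb-Par libraries were below all others, and Fb-Epn and Fb-Skn overlapped by normalised count. Mean TPM of *Hgf* was 1.46 ± 0.350 (SD, n = 3) in Fb-Epn, 0.153 ± 0.0820 in Fb-Par, then 1.05 ± 0.171 in Fb-Skn. The fitted log2FC was 3.22 for Fb-Epn against Fb-Par (SE 0.37), -2.89 for Fb-Par against Fb-Skn (SE 0.38) and 0.34 for Fb-Epn against Fb-Skn (SE 0.28), given as a description.

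*Met* (ENSRNOG00000052745, chromosome 4, 44774741 to 44852665) had 106, 121 and 111 counts in Fb-Epn, 63, 53 and 49 in Fb-Par and 85, 130 and 120 in Fb-Skn. All Fb-Par libraries were again the lowest, while the Fb-Skn libraries enclosed the narrow range of Fb-Epn. Its mean TPM was 4.34 ± 0.0774 (SD, n = 3), 2.19 ± 0.180 and 4.59 ± 1.26 in that order. *Met* had a log2FC of 0.99 for Fb-Epn against Fb-Par (SE 0.19, adjusted p = 4.7e-04, edgeR) and of -1.20 for Fb-Par against Fb-Skn (SE 0.19, adjusted p = 7.0e-05). Fb-Epn against Fb-Skn gave -0.21 (SE 0.18, adjusted p = 0.33, edgeR), a difference within the spread of the Fb-Skn libraries. The ratio of *Hgf* to *Met* TPM was 0.338 ± 0.0854 in Fb-Epn, 0.0716 ± 0.0437 in Fb-Par, then 0.243 ± 0.0858 in Fb-Skn (SD, n = 3). The highest ratio in Fb-Par, 0.118, was below the lowest of the other libraries, 0.159 in Fb-Skn, and is given as a description since *Hgf* was chosen on its differences. The summed TPM of 4 perineurial markers was also lowest in Fb-Par, at 78.6 to 86.0 against 197 to 202 in Fb-Epn and 102 to 114 in Fb-Skn, and its part in these results was not tested. Among these markers *Slc2a1* had that order (mean TPM 34.9, 145 and 69.0), while *Tjp1* was lowest in Fb-Skn (47.2, 54.0 and 39.7), *Cldn1* was highest in Fb-Par and at 0 counts in Fb-Skn, and *Lypd2* had 0 counts in every library.

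**Figure D3:**
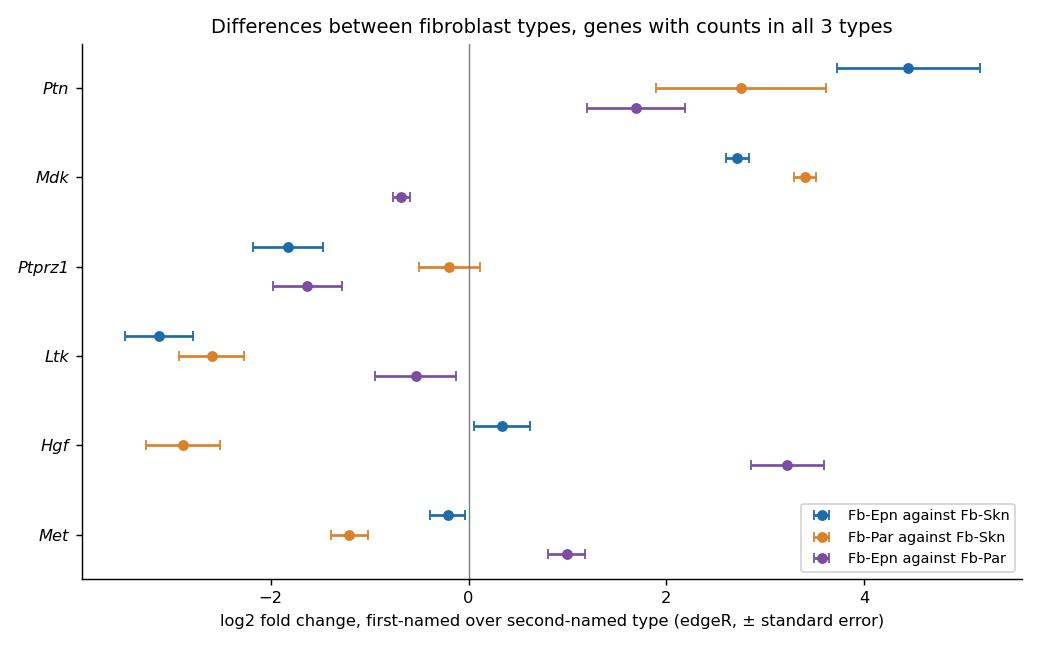
Log2FC (horizontal axis, edgeR, bars are the SE) of the 6 genes with counts in all 3 types and enough for the test (vertical axis), coloured by comparison, with the first-named type over the second. Mdk and Ptn lie to the right of 0 and Ltk to the left in both comparisons with Fb-Skn, and the estimates for Ptn against Fb-Skn rest on 3 counts in Fb-Skn.

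Within each type the genes had a wide range of levels per length. In Fb-Epn the mean TPM fell in the order *Mdk*, *Met*, *Ptn*, *Hgf*, *Ltk*, *Ptprz1* and *Alk*, with *Alkal1* and *Alkal2* at 0. Here the library ranges of *Met* and *Ptn*, and of *Ptprz1* and *Alk*, overlapped. Fb-Par had the order *Mdk*, *Met*, *Ptn*, *Ptprz1*, *Ltk*, *Alk*, *Alkal1*, *Alkal2* and *Hgf*, and from *Met* downward each neighbouring pair overlapped. In Fb-Skn *Alkal1* came first, and *Mdk*, *Ltk*, *Met*, *Ptprz1*, *Hgf*, *Ptn* and *Alkal2* followed, with *Alk* at 0. The pairs *Ltk* and *Met*, *Ptprz1* and *Hgf*, and *Ptn* and *Alkal2* overlapped there, and *Alkal2* had a count in only 1 library. The median tested gene had a TPM of 19.1 in each nerve type and 16.8 in Fb-Skn, a level that *Mdk* passed in the nerve types and *Alkal1* in Fb-Skn.

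Genes known to act with these factors were taken from 3 lists by role, 35 genes in all, of which 31 passed the filter. In Fb-Epn against Fb-Skn 14 of the 31 were called higher and 9 lower, in Fb-Par against Fb-Skn 17 higher and 10 lower, and in Fb-Epn against Fb-Par 9 higher and 13 lower. The shares of all tested genes called higher and lower were 23.0% and 20.9%, 23.2% and 22.4%, and 20.2% and 18.6% in the same order. The median log2FC of the 31 genes was 0.14, 0.17 and -0.11 in these comparisons, beside medians of -0.0028, -0.012 and -1.8e-04 over all tested genes. The genes described from the lists were those called with a log2FC beyond 2 in either direction in at least 1 comparison. In single comparisons this held for 8.44% of all tested genes in Fb-Epn against Fb-Skn, 8.54% in Fb-Par against Fb-Skn and 6.48% in Fb-Epn against Fb-Par. The share of all tested genes that passed in at least 1 comparison cannot be lower than these and was not counted. *Sdc1*, *Sdc2*, *Mst1r* and the other genes of HGF activation are named beside them and were picked after their values were seen.

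Of 15 binding partners of pleiotrophin and midkine, 5 were higher and 6 lower in Fb-Epn than in Fb-Skn, 7 higher and 7 lower in Fb-Par against Fb-Skn, and 5 higher and 8 lower in Fb-Epn than in Fb-Par, beside the shares of 18.6% to 23.2% a direction over all tested genes. *Sdc3* (syndecan 3), a heparan sulfate proteoglycan and a receptor of pleiotrophin, was at 47.2 ± 0.893 TPM in Fb-Epn, 99.7 ± 1.03 in Fb-Par, then 21.3 ± 1.33 in Fb-Skn (SD, n = 3). Its order of types was that of *Mdk*, and its log2FC in Fb-Par against Fb-Skn was 2.08 (adjusted p = 4.8e-14, edgeR). *Sdc4* (syndecan 4) was highest in Fb-Epn, at a TPM of 108 ± 5.31 against 38.8 ± 3.15 in Fb-Par and 19.9 ± 1.76 in Fb-Skn, and its log2FC between Fb-Epn and Fb-Skn was 2.30 (adjusted p = 2.4e-12). The other listed syndecans had other orders. *Sdc1* was lower than in Fb-Skn in both Fb-Epn and Fb-Par (log2FC -0.75 and -1.19). *Sdc2*, the most abundant of them at a mean TPM of 302, 774 and 325, had a log2FC of -0.24 in Fb-Epn and 1.10 in Fb-Par against Fb-Skn. *Itgb3*, an integrin beta chain, had a TPM of 16.9 ± 1.64, 30.7 ± 1.18 and 6.22 ± 1.25 in the epineurial, parenchymal and skin cells, and *Itga4*, an integrin alpha chain, had 3.13 ± 0.989, 6.87 ± 1.21 and 11.5 ± 1.50. By edgeR *Itgb3* had a log2FC of 2.16 between Fb-Par and Fb-Skn (adjusted p = 1.7e-09), and *Itga4* was lower in Fb-Epn than in Fb-Par (log2FC -1.11, adjusted p = 4.6e-04) and, by a log2FC just past the limit of 2, than in Fb-Skn (adjusted p = 1.0e-06).

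Of 7 genes for the activation of HGF and its inhibitors, only *St14*, *Plau* and *Spint2* passed the filter. *Plau*, the urokinase that can cut the HGF precursor, was at 53.4 ± 2.64 TPM in Fb-Epn, 18.7 ± 1.78 in Fb-Par, then 4.73 ± 0.481 in Fb-Skn (SD, n = 3), and its log2FC against Fb-Skn was 3.35 in Fb-Epn and 1.83 in Fb-Par (adjusted p = 2.5e-12 and 5.4e-09, edgeR). *Spint2*, an inhibitor of HGF-activating proteases, was highest in Fb-Skn at a TPM of 87.3 ± 2.07, against 29.7 ± 3.15 in Fb-Epn and 20.8 ± 0.740 in Fb-Par. Its log2FC against Fb-Skn was -1.70 in Fb-Epn and -2.22 in Fb-Par (adjusted p = 1.7e-10 and 1.1e-11). *St14*, the membrane protease matriptase, was at a TPM of 3.18, 2.76 and 3.01 in the 3 types and was not called in any comparison. *Hgfac*, *Hpn*, *Klkb1* and *Spint1* had at most 5 counts in any library.

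Of 13 partners and adaptors of MET and ALK, 8 were higher and 2 lower in Fb-Epn than in Fb-Skn, 9 higher and 2 lower in Fb-Par than in Fb-Skn, and 2 higher and 5 lower in Fb-Epn than in Fb-Par, again beside 18.6% to 23.2% a direction over all tested genes. *Nrp1* (neuropilin 1), a co-receptor, was at 63.3 ± 0.998 TPM in Fb-Epn, 68.7 ± 0.452 in Fb-Par, then 10.6 ± 0.194 in Fb-Skn (SD, n = 3), with log2FC values of 2.44 and 2.55 against Fb-Skn (adjusted p = 4.4e-15 and 1.8e-15, edgeR). *Mst1*, which encodes the HGF-related ligand of the MET relative MST1R, had 15, 14 and 15 counts in Fb-Epn, 12, 8 and 9 in Fb-Par and 0, 2 and 0 in Fb-Skn. Against those 2 counts the normalised count was 19.0-fold higher in Fb-Epn (95% counting interval 4.95 to 162) and 12.9-fold higher in Fb-Par (3.26 to 111). *Mst1* is among the genes counted as higher in both comparisons with Fb-Skn. It passed the filter through its nerve libraries, where it was high, so these calls are a description. *Mst1r* itself had a TPM of 6.52 ± 0.108, 6.10 ± 0.781 and 7.38 ± 0.788 and was called only in Fb-Par against Fb-Skn, with a log2FC of -0.42 (adjusted p = 0.0090, edgeR).

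**Figure D4:**
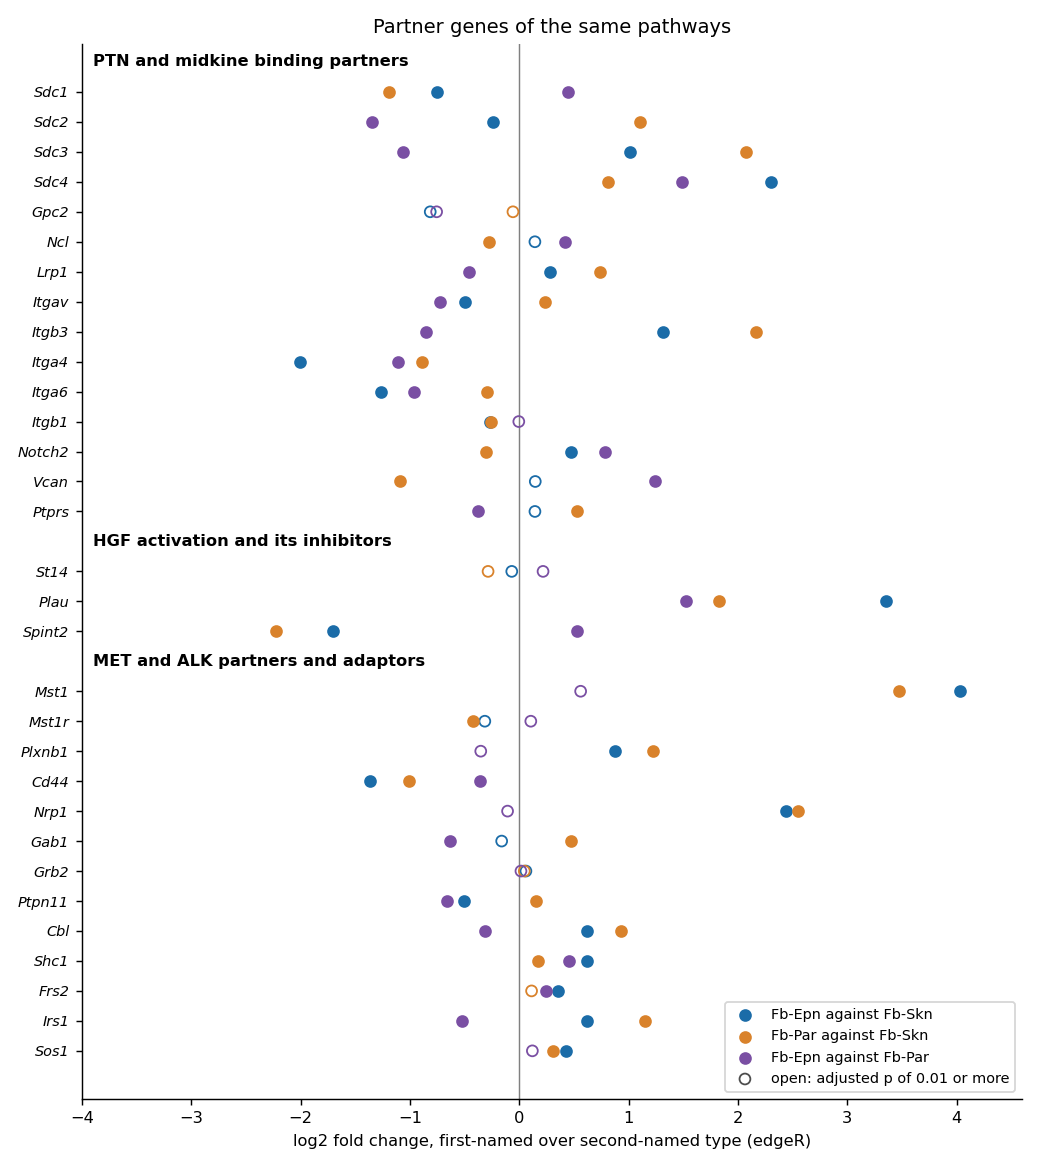
Log2FC (horizontal axis, edgeR, first-named type over the second) of the 31 tested partner genes, grouped by role (vertical axis) and coloured by comparison, with filled points for an adjusted p under 0.01 and open points for the rest. Plau, Nrp1, Sdc3, Sdc4 and Itgb3 lie to the right of 0 and Spint2 and Itga4 to the left in both comparisons with Fb-Skn, and the points of Mst1 against Fb-Skn rest on 2 counts in Fb-Skn.

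The genes with the pattern most like each of these genes were taken by Pearson's r of log2(TPM + 1) over the 9 libraries, for the 5 genes that passed the filter with a mean TPM of at least 1. The libraries fall into 3 types, so r mainly follows the type means and is a description. For *Mdk* they were *Sema4c*, *Ebf2* and *Glul* (r of 0.998, 0.997 and 0.997), and 683 tested genes had an r over 0.95. *Alkal1* was most like *Ankrd28*, *Mfge8* and *Rcn3* (r of 0.998, 0.997 and 0.996), among 263 genes over 0.95. Closest to *Ltk* were *Fkbp9*, *Odc1* and *Stxbp5l* (r of 0.991, 0.990 and 0.986), among 156 genes. For *Ptn* the closest were *RGD1561161*, *H3f3a* and *Slf1* (r of 0.979, 0.973 and 0.972), among 43 genes, and for *Met* they were *Yae1*, *Slc9b2* and *Snrpc* (r of 0.977, 0.973 and 0.970), among 12 genes.

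Position in the genome was not used to put the family together. *Ptn*, *Ptprz1*, *Hgf* and *Met*, 4 of the 9 genes, lie on chromosome 4, which holds 5.99% of the 32883 genes. *Mdk* and *Ltk* lie on chromosome 3, and *Alk* and *Alkal2* on chromosome 6. Among the deposited terms, *Ptn* and *Mdk* carry heparin binding, and *Ptn*, *Mdk* and *Hgf* carry growth factor activity, which follows from the functions by which the family was joined.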

How the data were processed

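Poly(A) RNA from 9 cultures was made into directional libraries, sequenced as paired ends of 150 bp and trimmed with Trimmomatic 0.38. The reads were aligned to rn6 with HISAT2 2.1.0, and featureCounts 1.6.3 is named in the submitters' processing notes. The annotation release and strand setting are not given in the sources used here. The authors deposited raw counts per gene, which were used for all tests. The authors also deposited TPM, which equal the counts divided by 1 length per gene and rescaled, and FPKM, for which no method is given and which served only as an alternative.

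Samples were grouped by their labels. The tests used edgeR 4.0.16 in R 4.3.3, with its default filter, TMM factors and the quasi-likelihood F test without a block, in 1 model of 9 libraries. The 9 genes and all gene lists were chosen with earlier results of these data known. Named partner genes followed the fold and p thresholds given with them, with at most 4 per list, besides those said to be picked after their values were seen. A group with 0 counts was set to a floor of 3 counts over its libraries, and ratios against that floor leave out counting error. With 1 to 3 counts, ratios have an exact 95% interval that covers counting error only. DESeq2 1.42.0, limma 3.58.1, other scalings, filters, library choices and an adjusted p of 0.05 were alternatives. Samples of a type differed by more than sampling noise (chi-square per gene of 3.31 to 5.48). Python 3.11.15 and pandas 2.3.3 made the tables. The test was also run on simulated counts with 1 common spread for all genes. Genes with the lowest counts were not changed there, so that run does not cover calls of genes with few or 0 counts. *Pecam1*, *Foxd3* and *Col1a2* of the marker lists were not analysed here, and 1 other Schwann cell marker is not reported here.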

Additional observations from a re-analysis of the deposited data

How the results depend on the processing

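Of 126 recounts of called genes under the alternatives, 124 were within 1.5 times the original count. The exceptions came when each library had to hold 10 counts or more, where only 3 of the 9 genes were tested, and 2 were called in Fb-Epn against Fb-Skn and 2 in Fb-Par against Fb-Skn, where 6 of all 9 genes had passed in each. Of 460 refitted log2 fold changes of single genes, 440 kept their direction and their side of the threshold. These include the 3 genes chosen on these differences and genes that were called in neither fit. Refits in which a gene failed the filter are not among them, so the share is not read as a measure of stability. The fold change of *Ptprz1* in Fb-Par against Fb-Skn, which was not called, turned to 0.061 without Fb-Par replicate 3 and to 0.037 without Fb-Skn replicate 3, and over the fits without 1 library it ranged from -0.53 to 0.061. Across the 9 fits that left out 1 library, the log2 fold change of *Mdk* against Fb-Skn ranged from 2.62 to 2.85 in Fb-Epn and from 3.30 to 3.53 in Fb-Par, and that of *Met* in Fb-Epn against Fb-Par from 0.92 to 1.04. *Ptprz1* in Fb-Epn against Fb-Par was not called by limma on log2(TPM + 1) or log2(FPKM + 1) (adjusted p of 0.016 and 0.028), nor in Fb-Epn against Fb-Skn by limma on log2(FPKM + 1) (adjusted p of 0.012). No label used here says that equal replicate numbers mark shared animals, and samples with equal numbers did not deviate together (r from -0.080 to 0.020 over 9 pairs). With the replicate number as a block, 6, 6 and 5 of the 9 genes were called in Fb-Epn against Fb-Skn, Fb-Par against Fb-Skn and Fb-Epn against Fb-Par, where 6, 6 and 4 were called without it, and 23, 26 and 21 partner genes were called. The counts over the 9 genes include the 3 genes chosen on these differences, for which no call is read, and the block changed no call of the 5 others that were tested. On log2(TPM + 1) the median of all tested genes moved to 0.126 in Fb-Epn against Fb-Skn and 0.123 in Fb-Par against Fb-Skn.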

Other observations

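The deposited FPKM and counts did not always give the same detection for these genes. *Alkal1* had an FPKM of 0.494 in Fb-Epn replicate 3, where its count was 0, and *Alkal2* had an FPKM of 0 in Fb-Skn replicate 1, where its count was 1.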
